A study of Mus musculus with 2 samples.

Results

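The genes described here were 10 enzymes and receptors of the prostaglandin and leukotriene pathway, among 20653 genes that could be named on the arrays. They were chosen by name, as every non-control probe assigned to a RefSeq transcript of Ptgs1, Ptgs2, Ptges, Ptger2, Ptger4, Alox5, Alox5ap, Alox15, Lta4h or Ltb4r1. All 10 genes had a probe, 11 probes in all, because Ptges had 2. RNA came from M-MDSCs, monocytic suppressor cells of the myeloid lineage, which were isolated from 4T1 tumours of female BABL/c mice. 4T1 is a mammary carcinoma line. The isolation used magnetic beads, with antibodies to Gr-1 and to Ly-6G, a neutrophil surface protein, to part M-MDSCs from granulocytic MDSCs. Every mouse had received 1000000 4T1 cells after a day without food and was then kept for 16 days on a normal-salt diet (NSD, chow with 0.4% NaCl and tap water) or a high-salt diet (HSD, chow with 4% NaCl and water with 1% NaCl). The labels give no altered genotype and no age. Cells of each diet group were mixed in equal numbers before RNA extraction, so each diet was represented by 1 array and no spread between mice could be computed. No test of the diet was possible, and every comparison below is a difference between 2 pools of cells.

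Prostaglandins and leukotrienes are signalling lipids made from arachidonic acid, which phospholipases release from membranes. Cyclooxygenases turn it into a common precursor from which prostaglandin E2 (PGE2), prostaglandin D2 (PGD2), thromboxane and prostacyclin are made by separate synthases, while 5-lipoxygenase opens the way to leukotriene B4 (LTB4), a chemoattractant of neutrophils, and to the cysteinyl leukotrienes. In tumours, PGE2 from cyclooxygenase-2 is known to promote the expansion and suppressive activity of MDSCs, and myeloid cells are the main source of leukotrienes.

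Values are processed signals in intensity units, which the extraction software had corrected for background. Log2 fold changes are HSD minus NSD after each array was scaled to its own 75th percentile, which raised the HSD values by 0.11 relative to the unscaled signals. The value after each ± is the error that the software's error model gives for the spots of an array. It stands for the measurement and not the variation between mice. For bright probes it was a nearly fixed fraction of the signal, so it is not a spread measured on that probe. Where a probe had several spots, their errors were combined as if independent. Each probe was printed in 1 spot per array, apart from that of Ptgs2. All 11 probes were called well above background under each diet, and no spot was saturated. A probe was counted when it was at least 1.5-fold different. Probes printed several times gave a measure of spot-to-spot noise within an array, with a median SD of 0.082 on the log2 scale over 289 such probes.

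Of the 11 probes, 1 passed 1.5-fold upwards in the HSD group (Ptgs2) and 1 downwards (Alox15), and 9 were within 1.5-fold. Of all 29628 probes detected well above background under either diet, 10.2% passed 1.5-fold upwards and 8.91% downwards, so the members' share of calls was near the background. None of the 11 reached 2-fold, against 2.68% of all probes higher and 3.51% lower. The log2 fold changes of the 11 probes had a median of 0.20, with 10 above 0 and 1 below, while the median over all probes was 0.06, with 16682 above 0 and 12917 below. Under quantile normalization, cyclic loess, scaling on probes detected on both arrays and in the deposited log2 values, 9 of the 11 were above 0. The median of the 11 was 0.09 under cyclic loess, 0.12 under quantile normalization and 0.13 in the deposited values. The median absolute log2 fold change was 0.25 for the 11 probes and 0.27 for all probes.

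**Figure D1:**
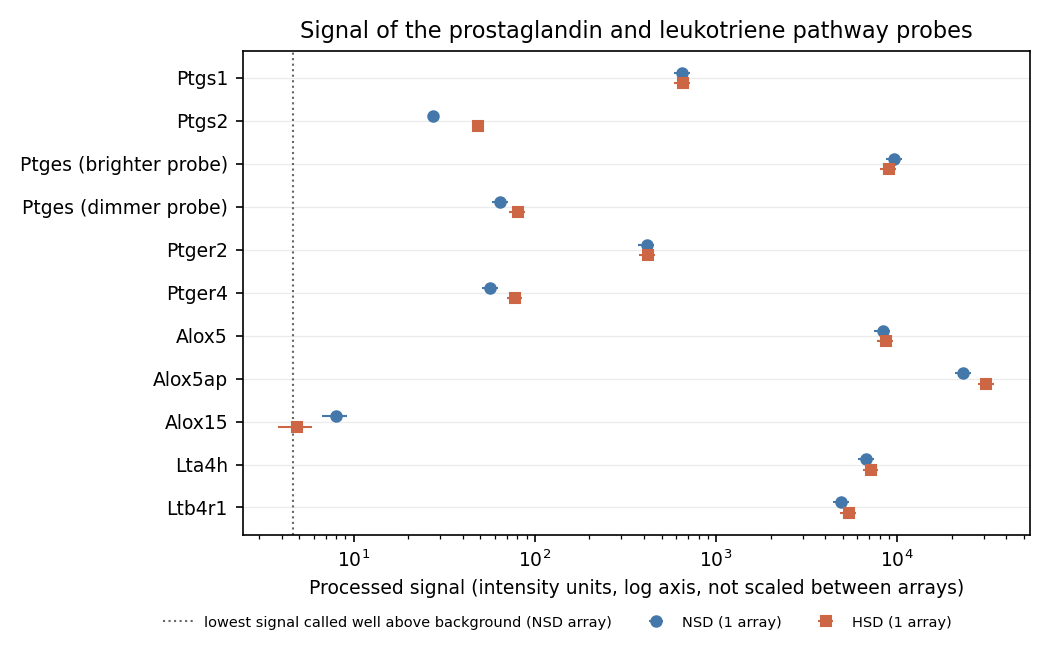
Processed signal of each of the 11 probes under NSD (circles) and HSD (squares), in intensity units on a log axis, with bars for the error of the software's error model. The dotted line is the lowest signal called well above background on the NSD array, 4.61 intensity units. The bars of the arrays overlap for Ptgs1, the brighter Ptges probe, Ptger2, Alox5, Lta4h and Ltb4r1. Ptgs2 is clearly to the right on the HSD array. Bars are also apart for Ptger4, Alox5ap, the dimmer Ptges probe and Alox15, which lies near the dotted line.

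Cyclooxygenases carry out the committed step towards all prostaglandins. Ptgs1, which encodes the constitutive cyclooxygenase-1, had a signal of 651 ± 65.1 under NSD and 655 ± 65.5 under HSD (log2 fold change 0.12 ± 0.20). Ptgs2 encodes the inducible cyclooxygenase-2 and was higher in the HSD group. Its probe was printed in 10 spots per array, and the 9 spots of the NSD array that were not flagged as outliers lay between 23.0 and 29.8 intensity units, with a median of 27.1. The 8 spots not flagged on the HSD array lay between 47.2 and 51.2, with a median of 47.8. The spots of the arrays did not overlap, also when the flagged ones were counted, of which 1 under NSD had 21.8 and 2 under HSD had 40.2 and 41.0. The mean signals were 27.3 and 48.5, a log2 fold change of 0.95 ± 0.07, or 1.93-fold. This error is small because the spots were treated as independent, whereas Ptgs1, with 1 spot per array, had 0.20. On the log2 scale, the unflagged spots had an SD of 0.13 under NSD and 0.040 under HSD. Of the probes detected under both diets, 5.59% had a larger absolute log2 fold change. These spots are repeated measurements of the same RNA pool and not separate samples. With the normexp background correction, which adds an offset of 50 and so compresses low signals, the log2 fold change of Ptgs2 was 0.44, below 1.5-fold. Tumour cells, fibroblasts and endothelial cells can also express Ptgs2. Of 6 markers of 4T1 cells, 3 were at least 1.5-fold higher and none was 1.5-fold lower. The brightest of them, Krt5 and Cdh1, had log2 fold changes of −0.54 and −0.43. The summed unscaled signal of the 6 was 155 under NSD and 143 under HSD. Of 4 detected fibroblast markers 2 were lower (summed signal 141 and 108), and Pdgfra was dim under both diets. None of 4 endothelial markers was counted as 1.5-fold different (495 and 509). Cdh5, 1 of these 4, was dim under HSD, so its log2 fold change of −0.16 is a bound and the fall may be larger. The part of such cells in the Ptgs2 signal was not tested.

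**Figure D2:**
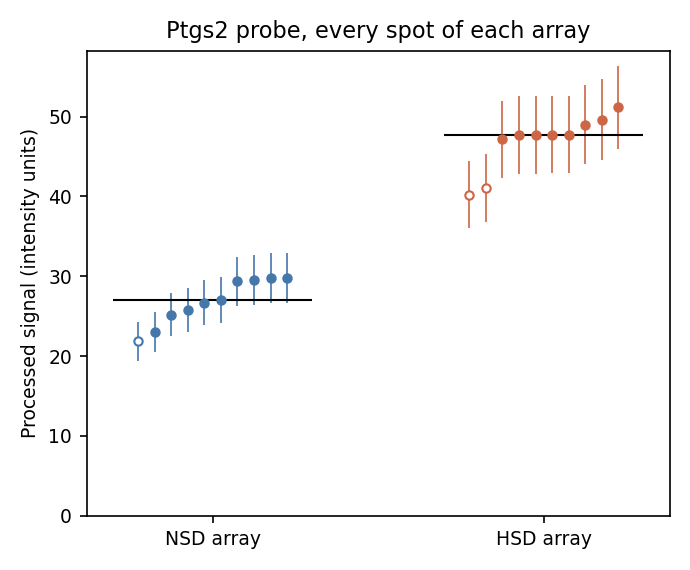
Signal of every spot of the Ptgs2 probe under NSD and HSD, in intensity units, ordered by signal, with the error of the software's error model as bars and a line at the median of the unflagged spots. Open circles are spots flagged as outliers. All 10 spots of the HSD array, from 40.2 upward, lie above all 10 of the NSD array, which reach 29.8.

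RefSeq promoter windows, on mouse assembly GRCm38.p6, were at hand for 8 of the 10 genes, from 250 bases before to 50 bases after the annotated start. That of Ptgs2 is shown because it is the gene with the largest difference among the members. The letters are those of the reference genome and were not measured in these mice. The 250 bases upstream, chr1:150099781-150100030 on the plus strand, are given with TTGCGCAA in capitals, a palindrome of the kind bound by C/EBP factors, which are myeloid and inflammatory regulators.
Ptgs2 upstream: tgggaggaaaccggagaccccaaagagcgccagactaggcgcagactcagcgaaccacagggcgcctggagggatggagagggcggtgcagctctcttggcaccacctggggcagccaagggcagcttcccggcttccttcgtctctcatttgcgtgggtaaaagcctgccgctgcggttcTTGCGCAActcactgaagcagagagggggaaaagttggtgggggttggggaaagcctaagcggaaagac
The 25 bases at chr1:150100036-150100060, which begin at base 6 of the annotated transcript, hold TGACG on the minus strand, the core of a cAMP response element, and CACGTG, an E-box. They share 2 bases and are in capitals.
Ptgs2 site: caccactaCGTCACGTGgagtccgc

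Searched on both strands over the 300 bases of each of 32851 windows, TTGCGCAA was present in 0.183%, TGACG in 20.8% and CACGTG in 7.15% of them. None of these was found in the windows of the other members, Ptgs1 among them. TGGAAA, which begins the site bound by the tonicity factor NFAT5, was found in those of Ptger2 and Ptger4 and in 21.4% of all windows. TATAAA and the NF-κB motif, present in 13.6% and 4.51% of all windows, were found in none of the 8. The motifs were picked from general knowledge with these sequences in view, a match is a description of the letters, and no factor's binding was measured.

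Downstream of the cyclooxygenases, Ptges encodes the inducible microsomal PGE2 synthase, which is coupled to cyclooxygenase-2. Its probes did not give the same picture. The brighter one had a signal of 9635 ± 964 under NSD and 8975 ± 897 under HSD (log2 fold change 0.01 ± 0.20). The other had 64.4 ± 6.51 and 80.4 ± 8.09, a log2 fold change of 0.43 ± 0.21. Both are assigned to the same transcript, and neither was 1.5-fold different. The sign of the brighter probe depended on the scaling, with a log2 fold change of −0.08 under quantile normalization and −0.11 under cyclic loess. The array carries no information here on which part of the transcript each probe reads.

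The PGE2 receptors among the members, EP2 and EP4, raise cyclic AMP and transmit most of the effects of PGE2 on myeloid cells. Ptger2 (EP2) had nearly the same signal on the arrays, 413 ± 41.3 under NSD and 419 ± 42.0 under HSD (log2 fold change 0.14 ± 0.20). Ptger4 (EP4) had 56.8 ± 5.79 and 77.6 ± 7.84, a log2 fold change of 0.56 ± 0.21. This is 1.48-fold, just inside the threshold, and 18.2% of the probes detected under both diets differed by more. With the normexp correction it was 0.30.

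The genes of LTB4 synthesis and reception were all within 1.5-fold. Alox5 encodes 5-lipoxygenase, the enzyme that commits arachidonic acid to leukotrienes. Its signal was 8316 ± 832 under NSD and 8637 ± 864 under HSD (log2 fold change 0.17 ± 0.20). Alox5ap, which encodes FLAP, the membrane protein that presents arachidonic acid to 5-lipoxygenase, had 23109 ± 2311 and 31057 ± 3106, a log2 fold change of 0.54 ± 0.20. The fold was 1.45, inside the threshold, and the log2 value lay between 0.40 and 0.56 under the other settings. Lta4h, the hydrolase that makes LTB4, had 6742 ± 674 and 7151 ± 715, a log2 fold change of 0.20 ± 0.20. Ltb4r1, the high-affinity LTB4 receptor BLT1, had 4915 ± 492 and 5397 ± 540, a log2 fold change of 0.25 ± 0.20. All 4 values were above 0 and none reached 1.5-fold.

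Alox15 encodes the 12/15-lipoxygenase of resident macrophages and eosinophils and was the member with a lower value in the HSD group. Its signal was 7.93 ± 1.22 under NSD and 4.86 ± 1.03 under HSD. The log2 fold change was −0.59 ± 0.38, a fold of 1.51 that lies just past the threshold. The lowest signals called well above background were 4.61 under NSD and 4.39 under HSD, so the HSD value was near the limit of detection. In the dimmest of 5 signal groups, where Alox15 lies, the SD between spots of a probe was 0.25. After normexp, the log2 fold change of Alox15 was −0.02. Of the 6 eosinophil markers, 4 passed 1.5-fold downwards with HSD. The other 2 were within 1.5-fold, Siglecf with a log2 fold change of 0.12 and Il5ra with 0.28. The summed signal of all 6 was 903 under NSD and 752 under HSD, most of it from Il5ra (330 and 370) and Siglecf (247 and 248). Under HSD, 5 of the 6 were well above background. Of the 7 macrophage markers, 5 were lower, among them Mrc1 with a log2 fold change of −4.50, C1qc with −3.11 and Mertk with −2.52. The other 2 were within 1.5-fold, C1qb with 0.33 and Adgre1 with −0.55. The summed signal was 14188 and 8678, most of it from Apoe (7119 and 4337) and Adgre1 (6723 and 4252). The part of eosinophils and macrophages in the value of Alox15 was not tested. In a pool of cells, fewer cells of a type and less RNA per cell cannot be told apart.

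**Figure D3:**
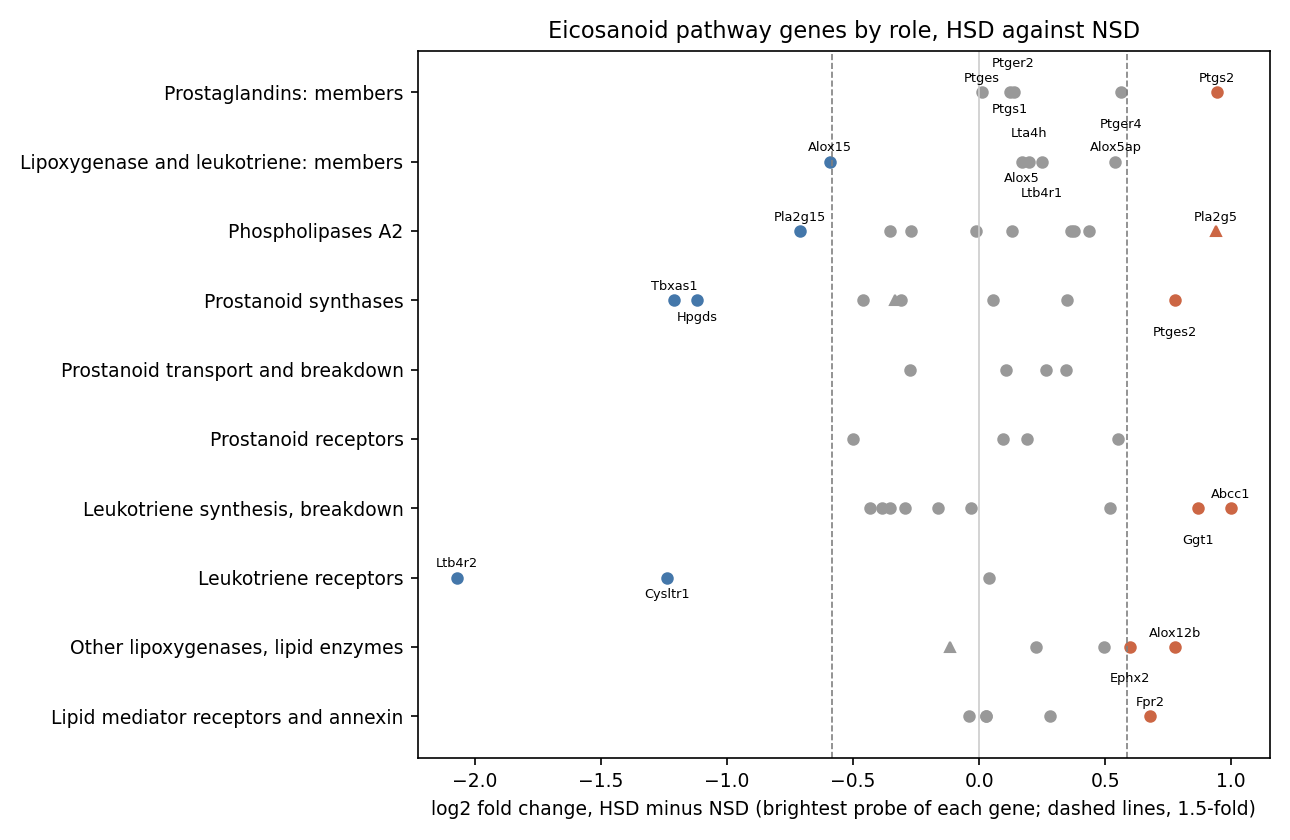
Log2 fold change, HSD minus NSD, of the members and of the other genes of the pathway, grouped by role, with the brightest probe of each gene. Coloured points are at least 1.5-fold higher (to the right of the dashed lines) or lower (to the left), and members or genes past 1.5-fold are named. Triangles are genes well above background on 1 array only, with a dim signal raised to the lowest well-detected one where it was below that. Most members lie between 0 and the right dashed line, and the lowest points are Ltb4r2, Cysltr1, Tbxas1 and Hpgds.

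Around the members, a list of 55 other genes of the pathway was measured, of which 47 were detected well above background under either diet. Among these 47, 7 passed 1.5-fold upwards and 5 downwards with HSD, and the median log2 fold change was 0.04. Of all 16332 such genes, 9.85% were higher and 10.3% lower, and the median of the 16312 with a value was 0.05. The values of the groups within the list are given as a description.

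Of 8 other prostanoid synthase genes, 1 was counted as higher, 2 as lower and 5 as neither. Among these 5, Ptgis, the prostacyclin synthase, had a signal of 6.00 under NSD and a dim 3.40 under HSD. Its log2 fold change of −0.33 is therefore a bound, and the fall may be larger. Tbxas1, the thromboxane synthase, had a signal of 703 ± 70.3 under NSD and 281 ± 28.1 under HSD (log2 fold change −1.21 ± 0.20). Hpgds, the haematopoietic PGD2 synthase, had 92.8 ± 9.33 and 39.5 ± 4.06, a log2 fold change of −1.12 ± 0.21. Ptges2, a further PGE2 synthase, was higher, with 1059 ± 106 and 1678 ± 168, a log2 fold change of 0.78 ± 0.20. The values of Tbxas1 were between −1.28 and −1.01 under the other settings, whereas that of Hpgds was −0.57 with the normexp correction. Ptges3, a cytosolic PGE2 synthase also known as the chaperone p23, had 4 probes with log2 fold changes of 0.35, 0.77, −0.27 and 0.48.

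Of the 4 leukotriene receptor genes other than Ltb4r1, 2 were lower, 1 was within 1.5-fold and 1 was dim under both diets. Ltb4r2, the low-affinity LTB4 receptor BLT2, is the neighbour of Ltb4r1 in the genome. Its signal was 27.6 ± 2.92 under NSD and 6.07 ± 1.28 under HSD (log2 fold change −2.07 ± 0.34), whereas Ltb4r1 had a log2 fold change of 0.25. The HSD signal of Ltb4r2 is near the limit of detection, and the value was −0.35 with the normexp correction. Cysltr1, a receptor of the cysteinyl leukotrienes, had 2 probes that gave nearly the same values. The brighter one had 67.8 ± 6.84 and 26.5 ± 2.81, a log2 fold change of −1.24 ± 0.21, and the other had 67.3 ± 6.80 and 25.6 ± 2.74, a log2 fold change of −1.28 ± 0.21. The value of the brighter probe was −0.51 with the normexp correction. Cysltr2 had a log2 fold change of 0.04, and the dim gene was Oxgr1.

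Of 9 genes of the further synthesis, export and breakdown of leukotrienes, 2 were at least 1.5-fold higher and 7 were within 1.5-fold. Ltc4s, which makes leukotriene C4, had signals of 40.9 under NSD and 30.8 under HSD (log2 fold change −0.29). The higher ones were Abcc1, an exporter of leukotriene C4, with 336 ± 33.6 and 621 ± 62.1 (log2 fold change 1.00 ± 0.20), and Ggt1, which trims leukotriene C4 outside the cell, with 68.2 ± 6.89 and 115 ± 11.5 (log2 fold change 0.87 ± 0.21). Both act on many other substrates as well.

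At the start of the pathway, Pla2g4a, the cytosolic phospholipase that frees arachidonic acid, had signals of 371 under NSD and 446 under HSD (log2 fold change 0.38). Of the 11 phospholipase genes, 9 were measured, and by their brightest probes 1 was higher and 1 lower. The probes of Pla2g2d differed in direction, with log2 fold changes of 0.43 on the brighter and −0.79 on the other. Those of Pla2g2e had −0.27 on the brighter and −0.76 on the other, which was dim under HSD. Pla2g5, a secreted phospholipase, had a signal of 4.98 with NSD, not well above background, and 8.82 with HSD. This is 1.92-fold higher, a log2 fold change of 0.94 ± 0.40. Its other probe was 1.27-fold above the lowest well-detected NSD signal, a log2 fold change of 0.35 ± 0.45. Pla2g15, a lysosomal phospholipase, was lower, with a log2 fold change of −0.71. After normexp neither passed 1.5-fold, with log2 fold changes of 0.21 and −0.54. None of the 4 measured genes of prostanoid transport and breakdown was 1.5-fold different, and Hpgd, which inactivates PGE2, was dim under both diets. Of the 7 other prostanoid receptors, 3 were dim under both diets and none of the others was 1.5-fold different. Among them Ptgir, the prostacyclin receptor, had signals of 1526 and 2064, a log2 fold change of 0.55.

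The labelled cell type was set against marker genes. All 7 monocyte markers with a probe were detected under both diets, with a summed signal of 107509 under NSD and 102392 under HSD. Cd14 was higher (log2 fold change 0.82), Ccr2 was lower (−0.78, with signals of 259 and 139) and 5 were within 1.5-fold. Among these 5 were Itgam, with signals of 31564 and 31043, and Csf1r, with 11343 and 8112 (log2 fold change −0.37). All 9 neutrophil markers with a probe were also well above background, with a summed signal of 319957 and 308012. The brightest was Camp, with 61817 and 59920. Of the 9, 8 were within 1.5-fold, and Mpo was lower (log2 fold change −0.92). Ly6g was listed as well but had no named probe. The bead isolation is meant to separate Ly-6G+ cells from M-MDSCs. Neutrophils are known to express the LTB4 genes, and the part of such cells in the signals of Alox5, Alox5ap, Lta4h and Ltb4r1 was not tested. The macrophage markers, 5 of 7 of which were lower, are given above beside Alox15. Of 6 platelet markers 4 were lower, with summed signals of 1450 and 302. Most of this sum came from Pf4 alone, with 1332 and 245, and Gp1bb had a log2 fold change of 0.36. Of 9 markers of mast cells and basophils 1 was lower and 8 were within 1.5-fold, with summed signals of 1109 and 745. Under HSD, 6 of the 7 macrophage, 6 of the 6 platelet and 8 of the 9 mast cell and basophil markers were well above background. The part of macrophages and platelets in the lower values of Tbxas1, Hpgds and Cysltr1 was not tested.

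**Figure D4:**
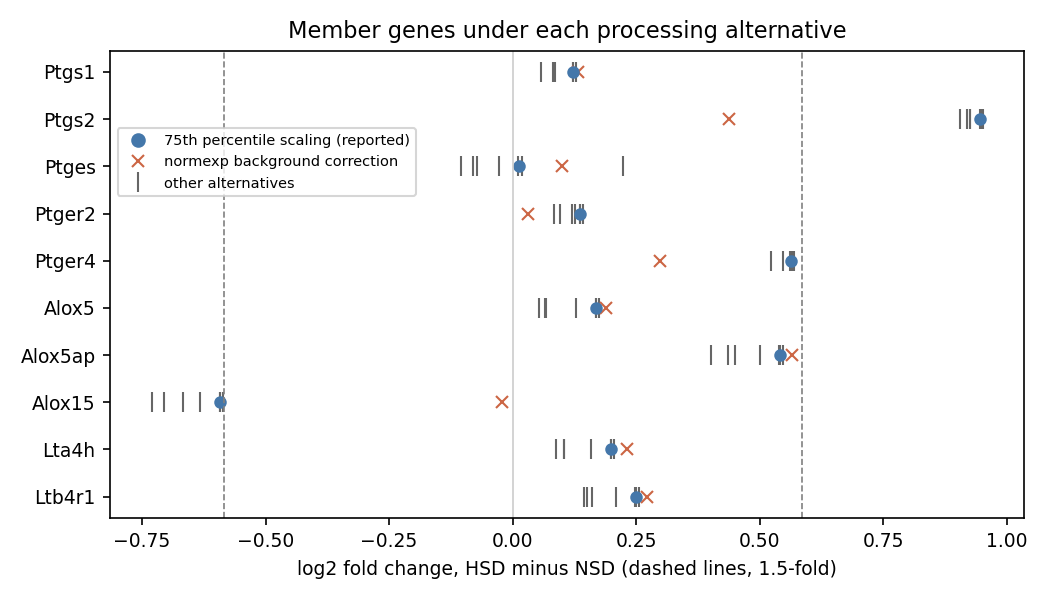
Log2 fold change, HSD minus NSD, of each member gene as reported (circles), with the normexp background correction (crosses) and under the other processing alternatives (ticks). Dashed lines mark 1.5-fold. Ptgs2 lies at 0.90 or higher under every alternative apart from normexp, where it is 0.44, and Alox15 moves from −0.59 to −0.02.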

How the data were processed

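RNA of M-MDSCs pooled by diet was labelled with Cy3 and hybridised to Agilent mouse arrays, 1 per diet, with the same recorded scan time. The authors deposited scanner output of Feature Extraction 11.0.1.1, whose processed signal, an intensity, is corrected for background and spatial trends, with its error by the software's error model, and without normalization between arrays. They also deposited normalized log2 values from GeneSpring, with the same median (4.61) and 75th percentile (7.89) on both arrays; the method is not given in the sources used here.

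Control spots and spots flagged as outliers were left out, spots of a probe were averaged as log2, and arrays were scaled to their 75th percentiles. This left 39413 probes, of which 71.9% (NSD) and 72.4% (HSD) were well above background (at least 50% of their spots). For a probe dim under 1 diet, the fold change used its own signal or the lowest well-detected signal of that array, whichever was higher. A probe dim under both got no fold change. Accessions without versions named 27223 probes (69.1%) through RefSeq of GRCm38.p6. Probe coordinates refer to an older build and are not given. The brightest probe stood for a gene.

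All probes of the members are named, and of the other pathway genes those past 1.5-fold and Pla2g4a, Hpgds, Tbxas1, Ltc4s, Hpgd, Cysltr1 and Ltb4r2. Further genes of the lists were named after their values were seen. The members and lists were chosen with earlier results of these data known. With 1 array per group no test was run, and precision is limited by having 2 arrays. Calls were tested on simulated data with 2-fold changes, which does not cover calls close to 1.5-fold. Alternatives were normexp correction of the median spot and local background signals (offset 50), quantile normalization, scaling on the median or on probes detected on both arrays, cyclic loess, the deposited log2 values, flagged spots kept, other filters, a 2-fold threshold and the median over a gene's probes. Python 3.11.15, numpy 2.4.6, pandas 2.3.3, matplotlib 3.10.9, R 4.3.3 and limma 3.58.1 were used.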

Additional observations from a re-analysis of the deposited data

How the results depend on the processing

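Ptgs2 was the member higher by 1.5-fold and Alox15 the member lower by 1.5-fold under quantile normalization, cyclic loess, both other scalings, the deposited log2 values and with flagged spots kept. With the normexp correction the counts were 0 higher and 0 lower, and at a 2-fold threshold they were also 0 and 0. Of the 47 other pathway genes, 4 were higher and 1 lower with the normexp correction, and 0 were higher and 4 lower at 2-fold. Over all probes, 961 were higher and 923 lower with the normexp correction, against 3030 and 2639 as reported. At 2-fold, 2.68% of all probes were higher and 3.51% lower. Under quantile normalization, cyclic loess and in the deposited values 5 were higher, as Fpr2 and Ephx2 fell below 1.5-fold. Without a filter on dim probes 8 were lower. The share over all genes was not computed under the alternatives, so these gene counts cannot be set against a background. Of 171 values of single genes under the alternatives, 131 moved by less than 0.082, the median SD between spots of a probe, and 40 by more. No gene past 1.5-fold changed sign. Many of the 131 could not have moved further. The other scalings shift every gene by the same amount, which was below 0.082. Keeping flagged spots does the same for a gene with 1 unflagged spot per array. For a gene with 1 probe, the median over its probes is the reported value. The share of all calls that were upward was 53.4% as reported and 42.4% after cyclic loess. No paired analysis was possible because each diet has 1 array. The values of Alox15, Ltb4r2 and Pla2g5 rest on signals near background.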

Other observations

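Genes of other lipid mediators were measured as well. Fpr2, a receptor of lipoxin A4 and of annexin A1 on neutrophils and monocytes, had a signal of 21167 under NSD and 31277 under HSD (log2 fold change 0.68 ± 0.20). It was below 1.5-fold under quantile normalization (0.57), cyclic loess (0.54) and in the deposited values (0.58). The related receptor Fpr1 had a log2 fold change of 0.28, and the probes of Anxa1, which encodes annexin A1, had 0.03 and 0.37. Gpr18 and Cmklr1 had −0.04 and 0.03.

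Of the 6 other lipoxygenase and lipid enzyme genes, 5 were measured and 2 were at least 1.5-fold higher. Alox12b, an epidermal lipoxygenase, had a log2 fold change of 0.78 on its brighter probe and 0.09 on the other, and the brighter one had 0.39 after normexp. Ephx2, the soluble epoxide hydrolase, had signals of 11.5 and 16.1, which is 0.60 on the log2 scale, or 0.20 after normexp. It was also below 1.5-fold under quantile normalization (0.58), cyclic loess (0.52), scaling on probes detected on both arrays (0.56) and in the deposited values (0.56). Alox8 was dim under both diets.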
